A study of Mus musculus with 12 samples.

Results

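The 9 genes described here belong to carotenoid uptake, retinoid metabolism and retinoid signalling, measured in mouse bone marrow: the uptake receptors Scarb1 and Cd36, the retinoid enzymes Retsat, Dhrs3 and Rdh11, and the nuclear receptors Rara, Rarg, Rxra and Rxrb. No enzyme that cleaves carotenoids or makes retinoic acid from retinal is among these genes. The 9 genes were chosen by name out of 21853 genes in the table, with earlier results of these data known. All 9 reached 1 FPKM (fragments mapped to a gene, scaled by its transcript length and by the fragments mapped in the library) in at least 3 of 12 libraries and so were among the 10994 genes tested. Messenger RNA of whole bone marrow from B6 mice was sequenced in 4 groups of 3 libraries. Control mice were not irradiated, and the labels give no gavage for them. TBI mice received total body irradiation with 5 Gy of γ-rays at 0.66 Gy/min and were gavaged with 100 µL of olive oil, the vehicle. TBI+DEIX mice were irradiated and given DEIX by mouth, and DEIX mice received DEIX without irradiation, by a route and in a vehicle that the labels do not state for them. DEIX was dosed daily at 25 mg/kg over 14 days, and marrow was taken on day 14 after TBI. DEIX stands beside the name deinoxanthin, a carotenoid pigment of the radiation-resistant bacterium Deinococcus, in the study's title. The labels give neither the age nor the sex of the mice, nor whether each library came from a separate animal, so p-values measure only the spread between these libraries.

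Carotenoids travel in lipoproteins and enter cells through scavenger receptors of the Scarb1 and Cd36 type. Some carotenoids are cleaved to retinal, which is reduced to retinol for storage or oxidised to retinoic acid. Retinoic acid binds the RAR receptors, which pair with RXR receptors on DNA and switch target genes on or off. In marrow, RARα is known for its part in the maturation of granulocytes, and RARγ for its part in keeping primitive haematopoietic cells.

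The libraries differed in ways that touch these genes. Summed FPKM ran from 493683 to 848843, and between 10359 and 10832 genes reached 1 FPKM. The sums include S100a8, S100a9 and Ngp, which stood at 0 in 2, 4 and 5 libraries. Elsewhere these genes were at 28424, 21273 and 13843 FPKM or more, so the sums partly reflect the zeros. The FPKM worth of 1 read, set to control replicate 1, was estimated as 1.51 to 2.14 in TBI+DEIX libraries, 1.11 to 1.64 in DEIX, 0.894 to 1.20 in TBI and 0.903 to 1.32 in control, where a higher value means fewer reads. The estimate is the commonest ratio of low FPKM values to those of control replicate 1. It was only 1.05 times as common as its rival in TBI+DEIX replicate 1 (2.14). In DEIX replicate 1 (1.64) and control replicate 3 (0.903) this was 1.09 and 1.16 times, so these 3 values are uncertain. The spread between replicates was widest in TBI+DEIX, at 0.442 on the log2 scale (root mean square SD over tested genes), against 0.199 in control, 0.253 in TBI and 0.248 in DEIX. TBI+DEIX replicate 1 stood apart. Its summed level of 8 B-lineage genes was 6.46 FPKM, against 70.8 and 173 in the other TBI+DEIX libraries and 362 to 440 in control. TBI replicate 1 was also low on this list, at 27.9 FPKM against 273 and 334 in the other TBI libraries, and had the highest erythroid sum of all libraries. Marker genes of neutrophils, erythroid cells, monocytes and megakaryocytes were present in all libraries, and 4 of 4 liver genes stayed under 1 FPKM in every library. In whole marrow, fewer cells of a type and less RNA per cell cannot be told apart.

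The 9 genes fell into 3 tiers of abundance. Over all libraries the mean level was 36.7 FPKM for Scarb1, 31.5 for Rxrb and 29.9 for Rara. It was 14.8 FPKM for Dhrs3, 10.3 for Rarg and 9.87 for Rdh11, and 5.97 for Rxra, 5.16 for Cd36 and 4.94 for Retsat. Within the control group the ranges of Scarb1 and Rxrb overlapped, as did those of Rxrb and Rara and those of Cd36 and Rxra, so these neighbours in the order were not separated. The steadiest gene was Rxrb, whose highest library was 1.25 times its lowest, followed by Rdh11 at 1.28 times. Rarg spanned 3.58 times and Cd36 14.7 times.

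**Figure D1:**
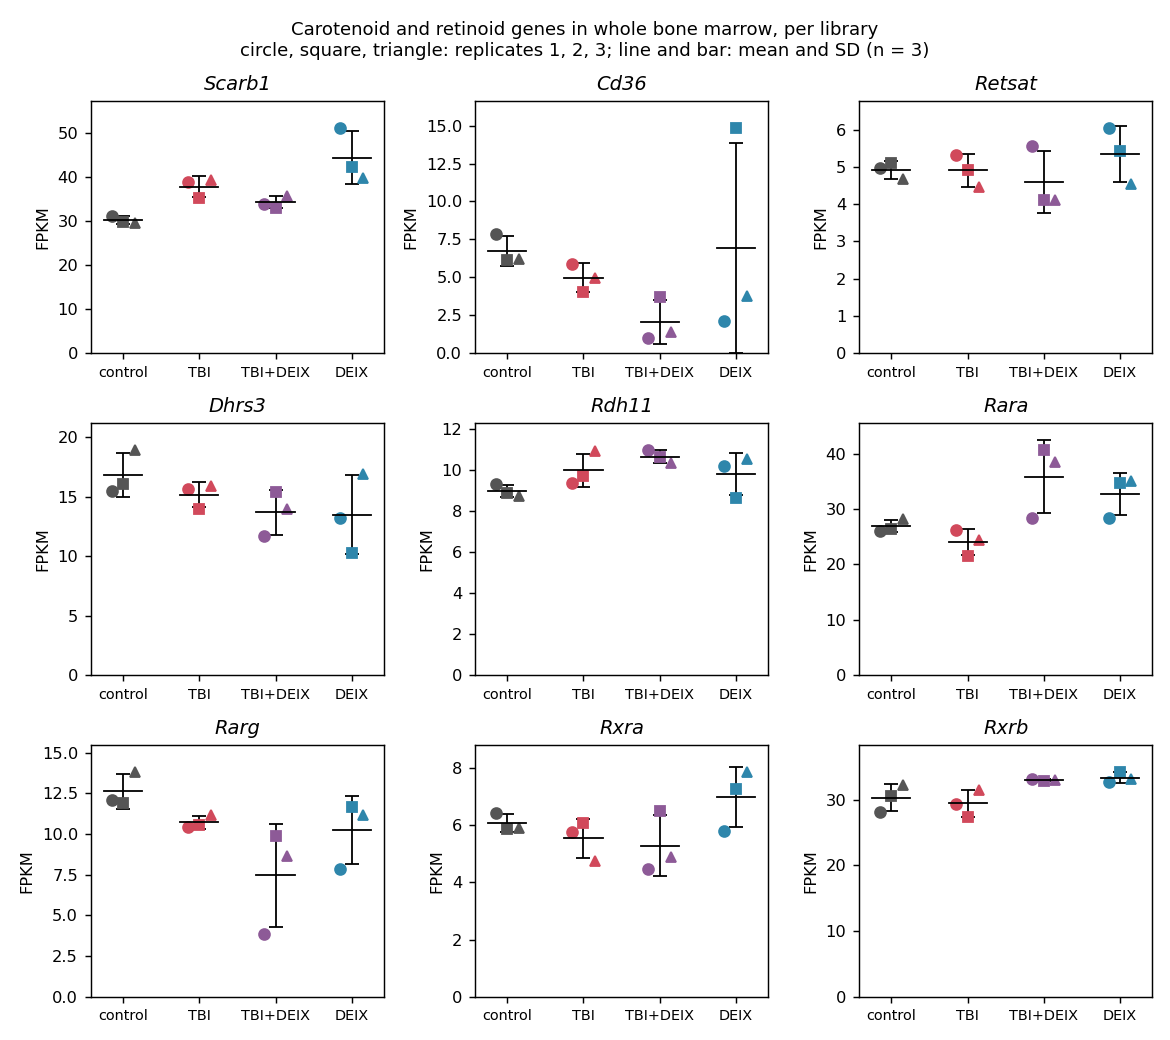
Level of each of the 9 genes in FPKM (vertical axes, each from 0) in the 12 libraries of the 4 groups, with group mean and SD. Scarb1 is highest in DEIX and Rara is highest in TBI+DEIX replicates 2 and 3. Rarg is lowest in TBI+DEIX replicate 1, and a Cd36 value of 14.9 in DEIX replicate 2 stands far above the other DEIX libraries.

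Across the 9 genes, 4 passed an adjusted p of 0.05 in some comparison of groups, each in 1 comparison. Over all tested genes, 32.1% were called in at least 1 comparison or the interaction. Rara rose in TBI+DEIX against TBI, Scarb1 rose in DEIX against control, and Rarg and Cd36 fell in TBI+DEIX against control. TBI against control called 0 of 9 genes (limma with Benjamini-Hochberg adjustment), with 1 at an unadjusted p under 0.05, where 3.99% of all tested genes were called. TBI+DEIX against TBI called 1 of 9, beside 8.10% of all tested genes. DEIX against control called 1 of 9, beside 7.24%. TBI+DEIX against control called 2 of 9, a share below the 30.0% of all tested genes. The difference between the DEIX effects with and without irradiation, the interaction, was called for 0 of 9, with 1 at an unadjusted p under 0.05, beside 0.200%. The median log2 difference of the 9 genes was -0.12 in TBI against control (0.05 over all tested genes), -0.09 in TBI+DEIX against TBI (0.0032), 0.11 in DEIX against control (0.02), -0.09 in TBI+DEIX against control (0.02) and -0.18 in the interaction (-0.02). TBI+DEIX and TBI are each compared with the same control libraries as DEIX is, so these comparisons are not independent. Each call was lost under some alternative processing, as given beside it.

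**Figure D2:**
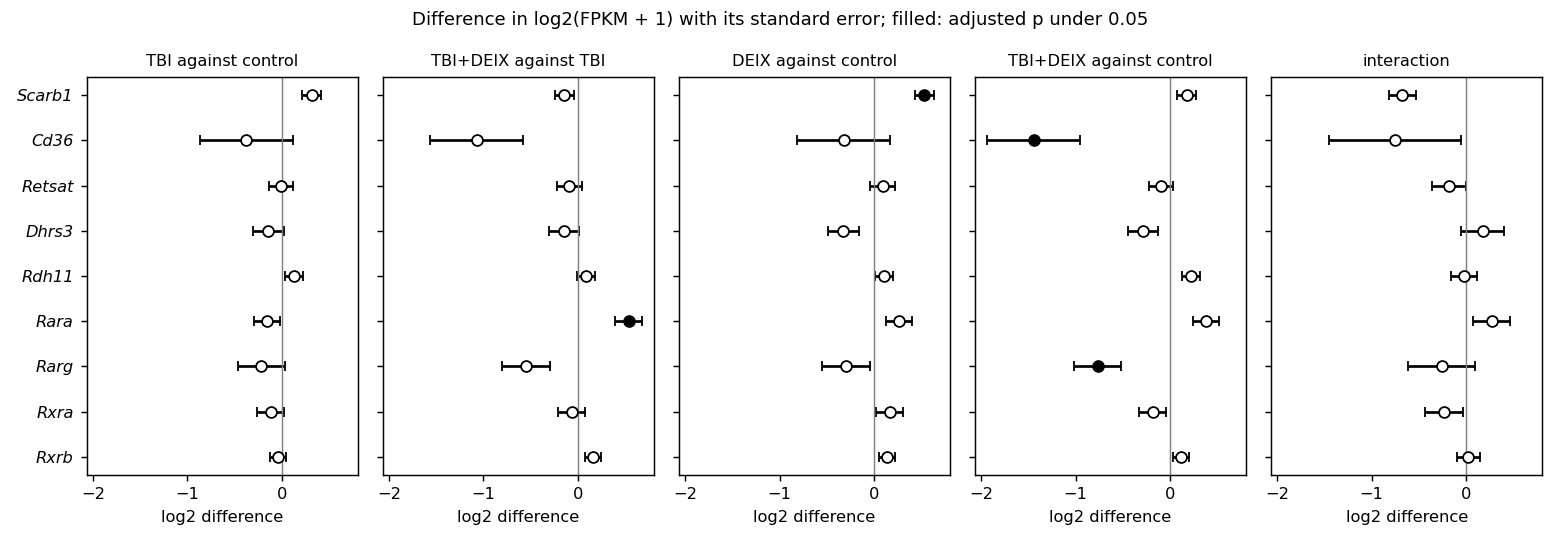
Difference in log2(FPKM + 1) with its standard error (horizontal axes) for each of the 9 genes in the 4 comparisons of groups and the interaction; filled points passed an adjusted p of 0.05. The 4 filled points are Rara at 0.54 in TBI+DEIX against TBI, Scarb1 at 0.54 in DEIX against control, and Rarg at -0.77 and Cd36 at -1.45 in TBI+DEIX against control.

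Scarb1 encodes the scavenger receptor SR-BI, which takes up cholesteryl esters and carotenoids from lipoproteins. It lies on the minus strand of chromosome 5 at chr5:125277087-125341094 (GRCm38, ENSMUSG00000037936.15), and the annotation also places the RNA gene Gm42633 there on the same strand. Scarb1 measured 31.2, 29.8 and 29.6 FPKM in control and 51.3, 42.3 and 39.8 FPKM in DEIX. The 3 DEIX libraries all lay above the 3 controls. The mean rose from 30.2 ± 0.926 to 44.5 ± 6.02 FPKM (SD, n = 3 each), a ratio of 1.47 and a log2(FPKM + 1) difference of 0.54 ± 0.10 (SE; limma, adjusted p = 0.0140). This call was lost on the TPM scale, at 0.39 with adjusted p = 0.294, and without DEIX replicate 1, at 0.43 with adjusted p = 0.0567. Leaving out control replicate 2 or 3 also lost it (adjusted p = 0.0708 and 0.0625), and adjusted p ran from 0.0128 to 0.294 over all alternatives.

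After irradiation Scarb1 stood at 39.0, 35.2 and 39.5 FPKM with vehicle and at 33.9, 33.1 and 35.8 FPKM with DEIX. Both irradiated groups lay above the controls without overlap, while TBI and TBI+DEIX overlapped each other. The TBI against control difference was 0.32 ± 0.10 on the log2(FPKM + 1) scale (SE; limma, adjusted p = 0.122), and with those 2 groups fitted alone adjusted p was 0.0383. TBI+DEIX differed from TBI by -0.14 (adjusted p = 0.406) and from control by 0.18 (adjusted p = 0.211). The interaction for Scarb1 was -0.68 ± 0.14 (SE; limma, adjusted p = 0.115), the lowest p of the 9 genes in that test, and was not called. Without TBI+DEIX replicate 1 the interaction was -0.67 with adjusted p = 0.0334, and over all alternatives adjusted p ran from 0.0334 to 0.720. The summed level of 12 monocyte and macrophage genes was 1297 to 1446 FPKM in DEIX and 829 to 953 in control. Of these 12 genes 2 were called higher in DEIX against control (Fn1 by 1.17 and F13a1 by 0.98 on the log2(FPKM + 1) scale) and 1 lower, the macrophage gene Mertk, by -0.77. Ccr2 and Csf1r of monocytes differed by 0.89 and 0.65, and Vcam1 and Cd163 of macrophages by -0.79 and -0.36, none of them called. The irradiated groups had 602 to 963 FPKM with vehicle and 420 to 783 with DEIX. Their part in the Scarb1 difference was not tested.

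Cd36 encodes a scavenger receptor for fatty acids and oxidised lipoproteins that also takes up carotenoids. It lies on the minus strand at chr5:17781690-17888801 (ENSMUSG00000002944.15). Control libraries had Cd36 at 7.88, 6.11 and 6.21 FPKM, TBI libraries at 5.91, 4.04 and 4.98, and TBI+DEIX libraries at 1.01, 3.70 and 1.38. The TBI+DEIX libraries were the lowest of these and overlapped neither of the other groups. From 6.73 ± 0.993 FPKM in control the mean fell to 2.03 ± 1.46 with TBI+DEIX (SD, n = 3). On the log2(FPKM + 1) scale this was -1.45 ± 0.49 (SE; limma, adjusted p = 0.0463). The call was lost without TBI+DEIX replicate 1 (-1.20, adjusted p = 0.101), without replicate 3 of that group (adjusted p = 0.110), without any control replicate (adjusted p = 0.0973 to 0.123) and with no filter on low values (adjusted p = 0.0828). Adjusted p ran from 0.0245 to 0.123 over all alternatives. TBI+DEIX differed from TBI by -1.07 ± 0.49 (limma, adjusted p = 0.19), and TBI from control by -0.38 (adjusted p = 0.743).

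DEIX alone gave the widest scatter of Cd36, at 2.13, 14.9 and 3.75 FPKM, which lay on both sides of the control and TBI libraries. The DEIX against control difference was -0.32 ± 0.49 on the log2(FPKM + 1) scale (limma, adjusted p = 0.738) and became 0.17 without DEIX replicate 1. The summed level of 10 erythroid genes was 256, 1601 and 443 FPKM in TBI+DEIX and 1620, 8165 and 1379 in DEIX, in replicate order. In control it was 3777, 3327 and 5261, and in TBI 8261, 1817 and 3531. Within TBI, TBI+DEIX and DEIX the library with the highest Cd36 was also the library with the highest erythroid sum, while in control replicate 1 had the highest Cd36 and replicate 3 the highest sum. Megakaryocyte and platelet genes, a list of 6 for cells that carry CD36, summed to 120 to 178 FPKM in control, 71.5 to 119 in DEIX, 43.1 to 61.8 in TBI and 27.4 to 55.5 in TBI+DEIX. The part of these cell types in the Cd36 difference was not tested.

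**Figure D3:**
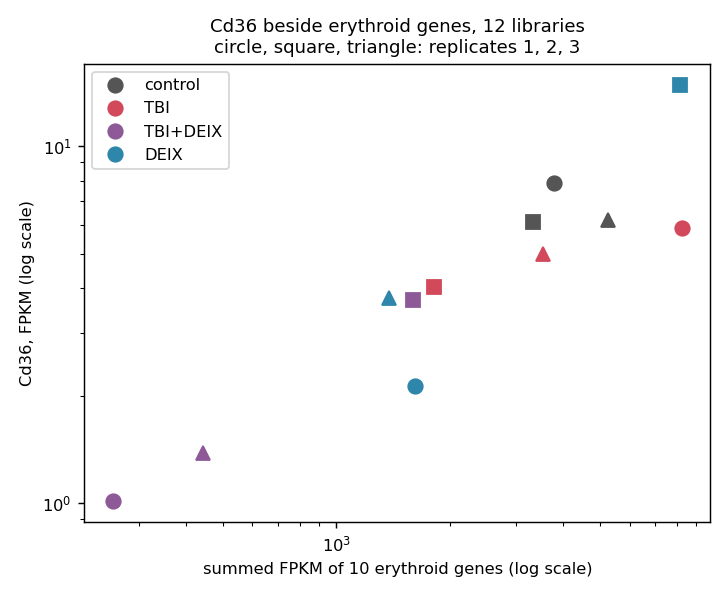
Cd36 in FPKM (vertical, log scale) against the summed FPKM of 10 erythroid genes (horizontal, log scale), 1 point per library, coloured by group. TBI+DEIX replicates 1 and 3 sit at the lower left, with Cd36 at 1.01 and 1.38 FPKM, and DEIX replicate 2 sits at the upper right, with 14.9.

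None of the 3 retinoid enzymes was called in any comparison. Retsat, which saturates a double bond of retinol, lies at chr6:72598475-72608425 on the plus strand (ENSMUSG00000056666.13), with the RNA gene Gm45053 on the opposite strand. Its mean was 4.91 ± 0.231 FPKM in control, 5.34 ± 0.752 in DEIX, 4.90 ± 0.439 in TBI and 4.59 ± 0.836 in TBI+DEIX (SD, n = 3). All 4 groups overlapped, and the differences ran from -0.09 to 0.09 on the log2(FPKM + 1) scale, with changes of sign on the TPM scale.

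Dhrs3 reduces retinal to retinol and is a known retinoic acid response gene. It lies at chr4:144892827-144928209 on the plus strand (ENSMUSG00000066026.14). Its level was 15.4, 16.1 and 19.0 FPKM in control and 11.7, 15.4 and 14.0 in TBI+DEIX, which lay below the controls by a margin within rounding. The difference was -0.28 on the log2(FPKM + 1) scale (SE 0.16; limma, adjusted p = 0.207). DEIX libraries measured 13.2, 10.3 and 16.9 FPKM and overlapped the controls (-0.32, adjusted p = 0.248), and TBI libraries measured 15.6, 13.9 and 15.9 FPKM (-0.14, adjusted p = 0.698).

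Rdh11 encodes a retinol dehydrogenase that reduces retinal in several tissues. It lies at chr12:79174337-79192293 on the minus strand (ENSMUSG00000066441.14). Rdh11 measured 9.32, 8.91 and 8.76 FPKM in control and 11.01, 10.7 and 10.3 in TBI+DEIX, with no overlap. The difference of 0.22 ± 0.10 on the log2(FPKM + 1) scale did not pass adjustment (limma, adjusted p = 0.106). TBI libraries measured 9.36, 9.70 and 10.9 FPKM and DEIX libraries 10.2, 8.63 and 10.6 FPKM. The differences of TBI+DEIX from TBI (0.09) and of DEIX from control (0.11) changed sign on the TPM scale, to -0.03 each.

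Rara encodes RARα, the retinoic acid receptor known to drive granulocyte maturation. The gene lies on the plus strand at chr11:98927818-98974942 (ENSMUSG00000037992.16) and hosts the small RNA gene Gm22061. Rara measured 26.3, 21.6 and 24.5 FPKM in TBI and 28.3, 40.7 and 38.5 FPKM in TBI+DEIX. The groups did not overlap, and replicate 1 of TBI+DEIX was close to the TBI range. The mean rose from 24.1 ± 2.36 to 35.9 ± 6.61 FPKM (SD, n = 3), a ratio of 1.49 and a log2(FPKM + 1) difference of 0.54 ± 0.14 (SE; limma, adjusted p = 0.0398). This call was the least stable of the 4: it was lost in 8 of 12 alternatives, with adjusted p from 0.0047 to 0.287. On the TPM scale the difference was 0.42 (adjusted p = 0.287), and with those 2 groups fitted alone adjusted p was 0.172. It was lost with no filter (adjusted p = 0.060), without TBI replicate 2 or 3 (0.134 and 0.143) and without TBI+DEIX replicate 2 or 3 (0.0875 and 0.125). Without TBI+DEIX replicate 1 it was 0.70 with adjusted p = 0.00474.

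Unirradiated marrow gave Rara at 26.1, 26.5 and 28.2 FPKM in control and 28.3, 34.7 and 35.1 in DEIX. The groups were separated by a narrow margin, and the difference was 0.27 ± 0.14 on the log2(FPKM + 1) scale (limma, adjusted p = 0.269). TBI+DEIX against control gave 0.39 (adjusted p = 0.0591), and 0.54 with adjusted p = 0.00368 without TBI+DEIX replicate 1, where adjusted p over all alternatives ran up to 0.398. TBI against control gave -0.16 (adjusted p = 0.606). The interaction for Rara was 0.27 ± 0.20 (limma, adjusted p = 0.898), so a difference between the DEIX effects with and without irradiation was not shown. Maturing neutrophil genes, a list of 8, summed to 20447, 51451 and 49450 FPKM in TBI+DEIX replicates 1, 2 and 3. They summed to 24969 to 30983 FPKM in TBI, 21329 to 29898 in control and 25545 to 35553 in DEIX. In TBI+DEIX and in control the library with the lowest Rara, replicate 1 in both, had the lowest neutrophil sum of its group. In both groups the 3 libraries had the same order on both measures. By contrast, in DEIX the library with the lowest Rara, replicate 1, had the highest sum, and in TBI the lowest values fell in different libraries. The part of neutrophils in the Rara difference was not tested.

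Rarg encodes RARγ and lies on the minus strand at chr15:102234938-102257517 (ENSMUSG00000001288.15). Control libraries gave 12.1, 11.9 and 13.8 FPKM and TBI libraries 10.5, 10.5 and 11.2. With DEIX the level was 3.87, 9.88 and 8.67 FPKM after irradiation and 7.84, 11.7 and 11.2 without it. Each treated group lay wholly below control, and TBI+DEIX lay wholly below TBI. The mean fell from 12.6 ± 1.06 FPKM in control to 7.47 ± 3.18 with TBI+DEIX (SD, n = 3). On the log2(FPKM + 1) scale this was -0.77 ± 0.25 (SE; limma, adjusted p = 0.0408). TBI+DEIX replicate 1 carried much of its size: without that library the difference was -0.41, still called (adjusted p = 0.0456). The call was lost without any 1 of the control replicates (adjusted p = 0.0837 to 0.120), with those 2 groups fitted alone (adjusted p = 0.123) and with no filter (adjusted p = 0.0695), and adjusted p ran from 0.0157 to 0.123.

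The other Rarg differences were not called: -0.55 ± 0.25 for TBI+DEIX against TBI (limma, adjusted p = 0.187), -0.29 for DEIX against control (adjusted p = 0.513) and -0.22 for TBI against control (adjusted p = 0.706). Without TBI+DEIX replicate 1 the first of these was -0.19, and without DEIX replicate 1 the second was -0.13. TBI+DEIX replicate 1, with the lowest Rarg, was the lowest of all libraries for most marker lists: B lineage (6.46 FPKM), erythroid cells (256), monocytes and macrophages (420), maturing neutrophils (20447), T and NK cells (51.6) and megakaryocytes and platelets (27.4). Their part in the Rarg difference was not tested.

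The RXR partners moved less. Rxrb, at chr17:34031812-34038399 on the plus strand (ENSMUSG00000039656.17), measured 29.4, 27.4 and 31.5 FPKM in TBI and 33.1, 32.9 and 33.1 in TBI+DEIX. These groups did not overlap, and the difference of 0.16 ± 0.08 on the log2(FPKM + 1) scale was not called (limma, adjusted p = 0.239). DEIX, at 33.4 ± 0.808 FPKM, lay above control, at 30.3 ± 2.06 (SD, n = 3), by 0.14 (adjusted p = 0.341), a sign that turned on the TPM scale (-0.01). Rxra, at chr2:27676440-27762957 on the plus strand (ENSMUSG00000015846.14), had means of 6.06 ± 0.312 FPKM in control, 6.99 ± 1.06 in DEIX, 5.54 ± 0.686 in TBI and 5.29 ± 1.07 in TBI+DEIX (SD, n = 3). Its libraries overlapped in every comparison, and adjusted p from limma was 0.368 or more.

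Separation without overlap was counted over all 9 genes. In TBI against control 4 of 9 genes did not overlap (Scarb1 and Rdh11 higher, Rarg and Cd36 lower), beside 38.2% of all tested genes. In TBI+DEIX against TBI it was 4 of 9 (Rara and Rxrb higher, Rarg and Cd36 lower), beside 27.2%. DEIX against control separated 4 of 9 (Scarb1, Rara and Rxrb higher, Rarg lower), beside 40.6%, and TBI+DEIX against control 7 of 9, beside 44.9%. The members' share was near the background in TBI against control and in DEIX against control and above it in the other two, a difference that was not tested.

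In TBI+DEIX against TBI the Rara and Rarg differences had opposite signs, with Rara alone called, and their ratio within a library, which does not depend on how the library was scaled, was also computed. This ratio was chosen after the values were seen. Rara over Rarg was 2.15, 2.22 and 2.04 in control and 2.51, 2.05 and 2.19 in TBI libraries. With DEIX it was 7.32, 4.12 and 4.45 after irradiation and 3.61, 2.97 and 3.14 without it. Both DEIX-treated groups lay above both groups without DEIX, with no overlap. The mean ratio was 5.29 ± 1.76 in TBI+DEIX against 2.25 ± 0.238 in TBI, and 3.24 ± 0.333 in DEIX against 2.14 ± 0.0923 in control (SD, n = 3). On the log2 scale the differences were 1.19 and 0.60, each with p = 0.1 in an exact two-sided permutation test, the smallest p that 3 against 3 libraries allow, and 0.267 after Benjamini-Hochberg adjustment over 8 tests. Leaving out any 1 library gave 0.93 to 1.35 and 0.52 to 0.66. TBI against control differed by 0.07 (exact permutation p = 0.6). Rxrb over Rxra, the matching ratio of the partner receptors, was 5.02 ± 0.562 in control, 4.85 ± 0.724 in DEIX, 5.41 ± 1.09 in TBI and 6.41 ± 1.21 in TBI+DEIX (SD, n = 3), and its groups overlapped in all 4 comparisons.

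**Figure D4:**
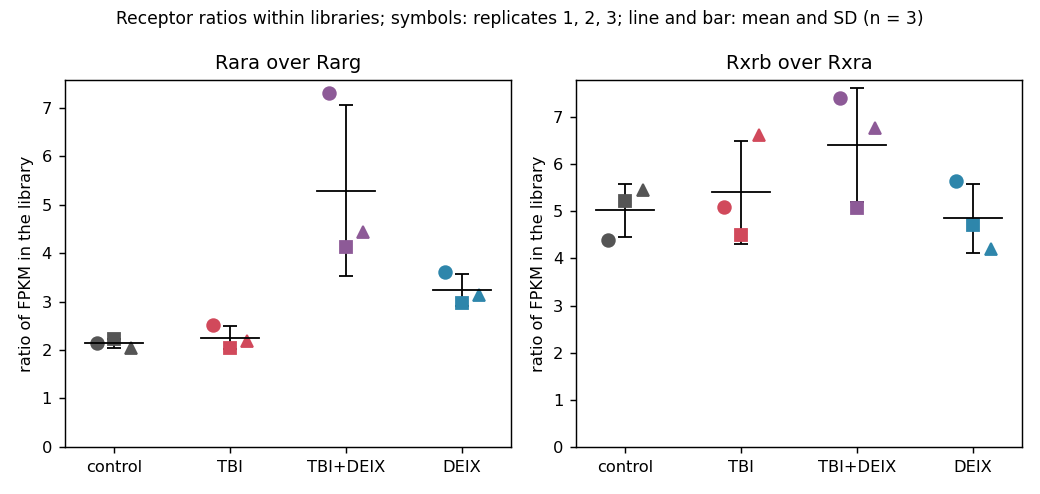
Ratio of FPKM within each library (vertical, from 0) for Rara over Rarg and for Rxrb over Rxra in the 4 groups, with mean and SD. Rara over Rarg lies between 2.04 and 2.51 in control and TBI libraries and between 2.97 and 7.32 in DEIX and TBI+DEIX libraries, while Rxrb over Rxra overlaps between groups.

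Upstream sequence is shown for Rara, Rarg and Cd36, each called in a comparison with the TBI+DEIX group, Rara against TBI and Rarg and Cd36 against control. Scarb1, the other called gene, had no entry among the upstream windows used. RefSeq windows (GRCm38.p6) of 250 bases before each annotated start were searched on both strands for the 6-letter core bound by RAR, RXR and related receptors. The letters searched were AGGTCA, the common form, then AGTTCA as well as GGGTCA, and lastly the form GGTTCA. A window with at least 1 match is common, at 38.6% of 32851 windows. Of the 9 genes, 8 had an entry, in 17 windows, of which 7 windows of 6 genes held 12 matches. Direct repeats of these letters spaced by 1, 2 or 5 bases were found in 0 of those 17 windows and in 0.164%, 0.174% and 0.0883% of all windows. The windows are written below from the far end to the start site, with matches on either strand in capitals. The Rara window shown, the third of 4, is at chr11:98939461-98939710 on the plus strand, with matches beginning 246, 199, 122 and 81 bases before the start. The Rarg window shown, 1 of 2, is at chr15:102257523-102257772 on the minus strand, with its match 225 bases before the start, and the Cd36 window is at chr5:17835897-17836146 on the minus strand, with its match at 228 bases.
Rara: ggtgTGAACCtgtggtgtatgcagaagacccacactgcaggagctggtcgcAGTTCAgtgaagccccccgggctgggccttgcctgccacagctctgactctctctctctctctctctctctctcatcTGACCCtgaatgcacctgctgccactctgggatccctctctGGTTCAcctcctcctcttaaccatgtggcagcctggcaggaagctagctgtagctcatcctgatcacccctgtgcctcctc
Rarg: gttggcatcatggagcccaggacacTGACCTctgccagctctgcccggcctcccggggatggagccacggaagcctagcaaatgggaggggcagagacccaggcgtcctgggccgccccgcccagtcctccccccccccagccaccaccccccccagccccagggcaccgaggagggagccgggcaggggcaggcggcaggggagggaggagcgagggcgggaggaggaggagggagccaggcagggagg
Cd36: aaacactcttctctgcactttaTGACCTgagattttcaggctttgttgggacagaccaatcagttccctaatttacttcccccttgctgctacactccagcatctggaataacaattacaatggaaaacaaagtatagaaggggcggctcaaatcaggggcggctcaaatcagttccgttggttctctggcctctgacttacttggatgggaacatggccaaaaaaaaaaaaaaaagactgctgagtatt
The Rara window shown held 4 matches and those of Rarg and Cd36 held 1 each. The other 3 windows of Rara and the other window of Rarg held 0 matches, and Cd36 had 1 window. A match describes letters only, and the expression data hold no measure of binding there.

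For each called gene, the 3 tested genes with the most similar profile over 12 libraries were found by the root mean square difference of centred log2(FPKM + 1). For Rara these were Prex1 (0.0863), Xpo6 (0.0887) and Retreg1 (0.0910), where the median over all tested genes was 0.346. Prex1 encodes a Rac exchange factor of neutrophils, and its mean was 42.1 FPKM in control and in TBI marrow, 51.9 in DEIX and 54.5 in TBI+DEIX marrow. For Scarb1 they were Pfkl (0.0912), Arl8b (0.0995) and Ufsp2 (0.124), beside a median of 0.304. Pfkl, a subunit of the glycolytic enzyme phosphofructokinase, had means of 12.3 FPKM in control, 17.8 in DEIX, 14.4 in TBI and 15.1 in TBI+DEIX. For Rarg they were Rnf227 (0.122), Nat8l (0.137) and Paip2 (0.138), beside 0.465. For Cd36 they were Vangl1 (0.381), Art4 (0.383) and Slc2a4 (0.385), beside 0.825. These distances grow with the size of a gene's own profile, which was 0.792 for Cd36, 0.399 for Rarg, 0.258 for Rara and 0.215 for Scarb1, so they do not rank the 4 genes. Art4 encodes a blood group antigen of red cells and Slc2a4 the insulin-responsive glucose transporter.

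Beyond these 9 genes, 78 other genes of carotenoid and retinoid biology were listed, of which 38 were tested and 15 were called in at least 1 comparison, beside 32.1% of all tested genes. Both carotenoid cleavage enzymes were below the limit for testing: Bco1 reached at most 0.0821 FPKM and Bco2 at most 0.677. The 3 retinoic acid-degrading enzymes of the Cyp26 family were not tested either, with Cyp26a1 at 0.457 FPKM or less. Rarb and Rxrg, the remaining retinoid receptors, reached at most 0.0499 and 0.0869 FPKM and are named here after their values were seen. Of 14 listed genes known to respond to retinoic acid 3 could be tested, and 0 of 3 were called in any comparison by limma. Besides Dhrs3 these were Cebpe, a granulocyte transcription factor, at 187, 183 and 175 FPKM in TBI and 95.1, 219 and 271 in TBI+DEIX, and Tgm2, a transglutaminase, at 8.62, 7.14 and 11.8 in TBI and 9.94, 9.40 and 4.02 in TBI+DEIX. The groups overlapped for both genes.

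In TBI+DEIX against TBI, 2 of the 38 other genes were called higher and 3 lower, beside 8.10% of all tested genes called either way, and their median log2 difference was 0.18 (0.0032 over all tested genes). DEIX against control called 5 higher and 1 lower, beside 7.24%, with a median of 0.11 (0.02). TBI+DEIX against control called 11 higher and 3 lower, beside 30.0%, with a median of 0.16 (0.02). TBI against control called 1 higher and 0 lower, beside 3.99%, with a median of 0.07 (0.05), and the interaction 0 of 38, beside 0.200%, with a median of -0.0038 (-0.02). Retinol-handling dehydrogenases were among the called genes. Dhrs9, which oxidises retinol, measured 52.9, 32.1 and 32.0 FPKM in TBI and 55.8, 91.3 and 77.4 in TBI+DEIX, and rose by 0.94 on the log2(FPKM + 1) scale (limma, adjusted p = 0.0353). It rose by 0.97 in DEIX against control (adjusted p = 0.0319) and by 1.25 in TBI+DEIX against control (adjusted p = 0.0028). The first and second of these calls each held in 4 of 12 alternatives and the last in 12 of 12. Rdh12, which reduces retinal, measured 34.1, 36.5 and 36.6 FPKM in control, 72.9, 67.8 and 71.8 in DEIX, and 46.4, 86.1 and 85.1 in TBI+DEIX, with no overlap between control and either group. It rose by 0.97 in DEIX against control (adjusted p = 0.0206) and by 0.95 in TBI+DEIX against control (adjusted p = 0.00576), calls that held in 7 and in 12 of 12 alternatives. Within TBI+DEIX replicate 1 was lowest and replicate 2 highest for Dhrs9, for Rdh12 and for the maturing neutrophil sum (20447, 51451 and 49450 FPKM in replicates 1, 2 and 3). Dhrs9 also kept the order of this sum in TBI, and Rdh12 kept it in control and DEIX. In control, however, Dhrs9 had the reverse order. In DEIX the highest Dhrs9 was in replicate 3 and the highest sum in replicate 1. In TBI the lowest Rdh12 was in replicate 2 and the lowest sum in replicate 3. Of the 8 neutrophil genes 3 were called higher in TBI+DEIX against control, beside 30.0% of all tested genes called either way. In DEIX against control 0 of the 8 were called, beside 7.24%. There the neutrophil sum was 25545 to 35553 FPKM in DEIX and 21329 to 29898 in control. The part of neutrophils in the Dhrs9 and Rdh12 differences was not tested.

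Aldh1a1, which makes retinoic acid from retinal, went the other way. It measured 17.2, 17.7 and 15.8 FPKM in control and 22.3, 8.06 and 22.4 in TBI libraries. With DEIX it measured 5.36, 5.14 and 3.67 FPKM after irradiation and 7.26, 15.8 and 8.68 without it. TBI+DEIX lay below every other library. The difference was -1.59 against TBI (limma, adjusted p = 0.0256) and -1.66 against control (adjusted p = 0.00547), and the calls held in 7 and in 12 of 12 alternatives. The DEIX library with the highest Aldh1a1, replicate 2, had the highest erythroid sum of its group, and the TBI library with the lowest Aldh1a1, replicate 2, had the lowest. In TBI+DEIX and in control the order was not shared: the library with the highest Aldh1a1 had the lowest erythroid sum. The part of erythroid cells in this difference was not tested. Dhrs4, a carbonyl and retinal reductase, fell by 0.53 on the log2(FPKM + 1) scale in TBI+DEIX against TBI (adjusted p = 0.0298), and by 0.48 in TBI+DEIX against control (adjusted p = 0.0143), calls that held in 5 and in 9 of 12 alternatives.

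Of 8 tested genes of carotenoid and lipoprotein uptake, 3 rose in DEIX against control, among them Scarb1 and Lrp1, where 7.24% of all tested genes were called. Lrp1, which clears remnant lipoproteins, measured 11.5, 9.82 and 8.66 FPKM in control and 23.3, 30.4 and 22.7 in DEIX, a log2(FPKM + 1) difference of 1.26 (limma, adjusted p = 0.00447) that held in 12 of 12 alternatives. In TBI+DEIX it measured 20.1, 14.3 and 18.0 FPKM, a rise of 0.74 against control (adjusted p = 0.00996) that held in 11. Lipe, the hormone-sensitive lipase that frees stored retinyl esters, rose by 0.51 in TBI+DEIX against TBI (adjusted p = 0.0170) and by 0.55 in DEIX against control (adjusted p = 0.00753), calls that held in 8 and in 11 of 12 alternatives. Both were lost on the TPM scale, and the first also with those 2 groups fitted alone, without TBI replicate 3 and without TBI+DEIX replicate 3. Lipe also rose by 0.61 in TBI+DEIX against control (adjusted p = 0.00079), in 11 of 12 alternatives. Among receptors that pair with RXR, Thra fell by 0.54 in TBI+DEIX against TBI (adjusted p = 0.0468), Nr1h3, the sterol sensor LXRα, fell by 0.71 in DEIX against control (adjusted p = 0.0366), and Ppard, a fatty acid sensor, rose by 0.60 in TBI+DEIX against control (adjusted p = 0.0123). Thra also fell by 0.52 in TBI+DEIX against control (adjusted p = 0.0209), in 7 of 12 alternatives. The other calls of Thra and Nr1h3 held in 4 of 12 alternatives each, and that of Ppard in 11, all but the TPM scale. In TBI+DEIX against control there were further rises of Dgat1 (0.93), Ep300 (0.51), Rdh10 (0.39), Nr1h2 (0.35) and Tbl1xr1 (0.28), with adjusted p from limma of 0.0196, 0.0112, 0.00985, 0.0323 and 0.0348. These calls held in 8, 11, 10, 3 and 4 of 12 alternatives in that order.

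**Figure D5:**
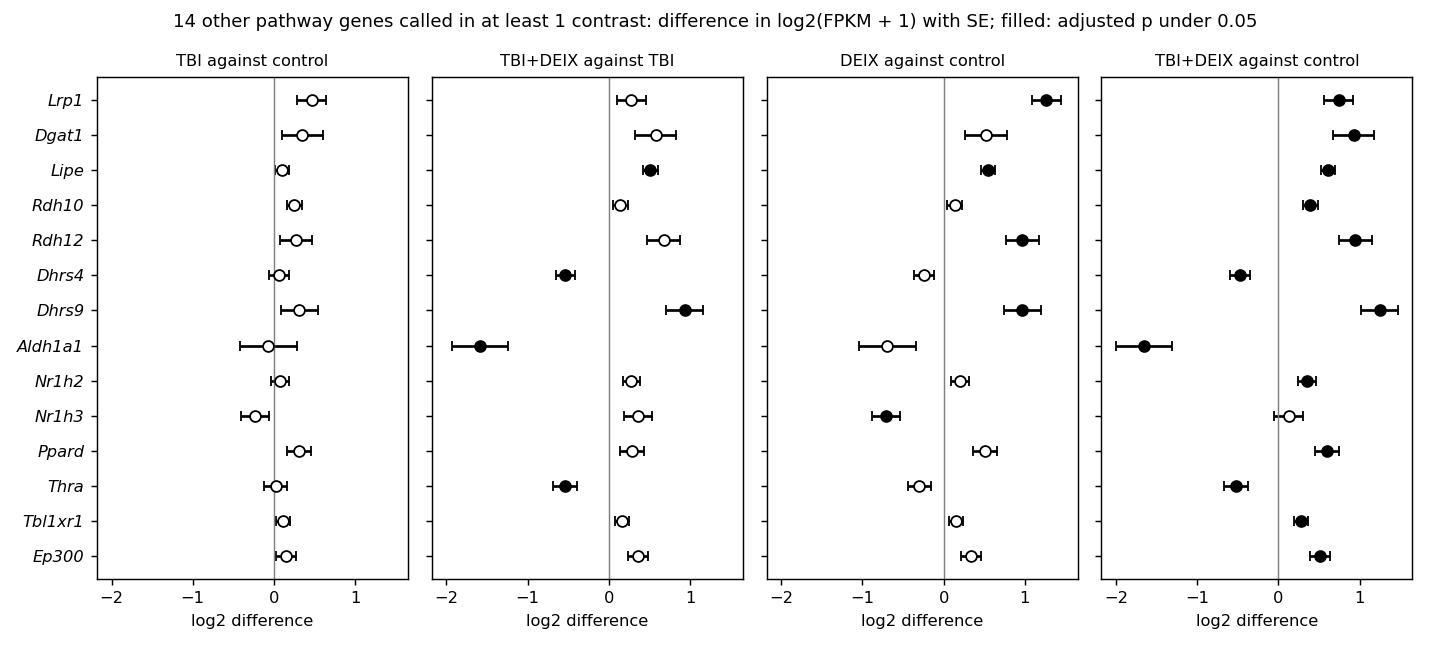
Difference in log2(FPKM + 1) with its standard error (horizontal axes) for 14 of the 15 other pathway genes called in at least 1 comparison; filled points passed an adjusted p of 0.05. Aldh1a1 lies furthest to the left, at -1.66 in TBI+DEIX against control, and Lrp1 furthest to the right in DEIX against control, at 1.26.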

How the data were processed

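Whole bone marrow RNA of 12 mouse libraries in 4 groups was measured by directional mRNA sequencing, per the labels. The authors deposited 1 table of FPKM values for 21853 genes; STAR 2.6, Cufflinks 2.2.1 and mm10 are named in the submitters' processing notes, and the annotation and strand setting are not given in the sources used here. FPKM carries no read totals, so depth is known only relatively. The table lists abundant genes such as S100a8 at 0 in some libraries, and TPM scaling divides by a summed FPKM that holds those zeros. None of the 9 genes was at 0.

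Genes with at least 1 FPKM in 3 or more libraries (10994) were tested on log2(FPKM + 1) with limma 3.58.1 in R 4.3.3. The model had 4 group means over all libraries, 8 residual degrees of freedom and a mean-variance trend. P-values were adjusted by Benjamini-Hochberg over all tested genes, with calls at 0.05; the model was tested on simulated data. Fold changes on this scale understate those of low genes. Alternatives were a pseudocount of 0.1, no filter, TPM and median ratio scaling, fitting only the compared groups, a replicate block and leaving out each library. Receptor ratios were compared by exact permutation tests.

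The members and gene lists were chosen with earlier results of these data known. Other pathway genes could be named if called in some comparison, or if among the 3 most abundant of their list. One of the called pathway genes is not reported here. All 21853 identifiers matched GENCODE M21, which gave the GRCm38 coordinates.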

Additional observations from a re-analysis of the deposited data

How the results depend on the processing

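Of 585 values of the 9 genes under alternatives, 538 kept direction and side of the threshold, 23 lost a call, 3 gained one and 21, of 12 results, changed sign; 0 of these belonged to a called result. Where no value is given for why a result moved, the cause was not tested.

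TPM scaling shifted the median of all tested genes from 0.02 to -0.12 in DEIX against control, from 0.0032 to -0.12 in TBI+DEIX against TBI and from 0.02 to -0.09 in TBI+DEIX against control. The share of calls that were higher went from 62.4% to 19.1%, from 57.9% to 34.4% and from 56.2% to 30.6% in those comparisons, from 22.3% to 9.49% in TBI against control and from 95.5% to 82.1% in the interaction; median ratio scaling gave 51.9% in DEIX against control. On TPM, Rxrb differed by -0.011 in DEIX and -0.00015 in TBI+DEIX, each against control, Rdh11 by -0.032 in TBI+DEIX against TBI and -0.032 in DEIX against control, and Retsat by 0.0011 in TBI and -0.037 in DEIX against control. Median ratio scaling put the Rdh11 interaction at 0.0061.

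Genes called in TBI against control numbered 439, and 253 on TPM, 1417 with the compared groups alone and 675 with no filter. TBI+DEIX against TBI gave 891, and 157 on TPM and 0 with the compared groups alone by limma (2015 at an unadjusted p under 0.05). DEIX against control gave 796, and 282 and 2057 under the same settings. TBI+DEIX against control gave 3299, and 1785 and 2181. The interaction gave 22, and 37 with no filter and 11 with a pseudocount of 0.1. Calls among the 9 genes changed from 0 to 1 in TBI against control with the compared groups alone, from 1 to 0 in TBI+DEIX against TBI on TPM, with the compared groups alone and with no filter, from 1 to 0 in DEIX against control on TPM, and in TBI+DEIX against control from 2 to 1 with the compared groups alone and to 0 with no filter.

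Leaving out each library gave 153 to 259 called genes in TBI against control, 5 to 2836 in TBI+DEIX against TBI, 146 to 938 in DEIX against control, 2004 to 4232 in TBI+DEIX against control and 4 to 331 in the interaction. In TBI+DEIX against TBI the count was 2836 with TBI+DEIX replicate 1 left out, 51 with replicate 3 of that group left out and 5 with TBI replicate 3 left out. Called members ranged from 0 to 1 in TBI+DEIX against TBI, DEIX against control and the interaction, and from 0 to 2 in TBI+DEIX against control. Sign changes lay in the ranges -0.48 to 0.10 for the Rarg interaction, -0.20 to 0.029 for Rxra in TBI+DEIX against TBI, -0.092 to 0.0088 for Rxrb in TBI against control, -0.023 to 0.077 and -0.099 to 0.041 for the Rxrb and Rdh11 interactions, -0.996 to 0.17 for Cd36 in DEIX against control and -0.056 to 0.052 for Retsat in TBI against control.

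Replicate numbers did not pair the samples: 18 correlations of same-numbered libraries ran from -0.447 to 0.242, 3 were over 0.1, and the best match in another group had the same number in 7 of 36 cases. With a replicate block 474 genes were called in TBI+DEIX against TBI, where members called went from 1 to 0 (Rara, adjusted p = 0.0572), and 378 genes were called for TBI, 640 for DEIX and 3000 for TBI+DEIX, each against control, and 20 for the interaction. The number of reads, and so the counting error of low genes such as Cd36, is unknown.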
